A study of Homo sapiens with 4 samples.

Results

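The 237 genes described here are the ZNF zinc finger genes of chromosome 19, taken as every probe set with a single gene symbol that begins with ZNF and a digit and with an identifier that places it on chromosome 19. They are 237 of the 17687 named genes on the arrays. RefSeq lists all of them on chromosome 19, 232 as protein coding, 3 as long noncoding RNAs and 2 as transcribed pseudogenes. The RNA came from 22Rv1, a human castration-resistant prostate cancer line kept in hormone-stripped serum before treatment. Cells were transfected with siOCT1, an siRNA against the octamer-binding transcription factor OCT1, or with siControl. After 48 h they received 10 nM dihydrotestosterone (DHT), a potent androgen, or the ethanol vehicle for 24 h. The 4 groups, siOCT1 with DHT, siOCT1 with vehicle, siControl with DHT and siControl with vehicle, held 1 array each. A difference between a pair of them therefore has no replicate behind it, and having 4 arrays limits the precision of every value. The gene for OCT1 was not analysed here, so siOCT1 names the siRNA given and not a checked loss of the factor.

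Most of these genes encode proteins with a tandem array of C2H2 zinc fingers that read DNA, and many carry a KRAB domain in front of the fingers. KRAB recruits the corepressor TRIM28, which brings in histone H3 lysine 9 methylation and heterochromatin protein 1, and many of the proteins silence retrotransposons. The genes multiplied by tandem duplication and stand in runs of close relatives along chromosome 19, so their messages resemble each other. Probes of one may also bind the message of another, and that was not tested here.

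Signals are log2 values as deposited, and each difference is the log2 signal of one array minus that of another. The 4 arrays had medians of 5.99 to 6.03 and correlated with r of 0.970 to 0.987 across probe sets. A gene counted as measured where its mean over the 4 arrays exceeded 5.93, the median of that mean over all genes. This left 165 members (69.6%) among 8843 genes, with 97 of the 237 above background on all 4 arrays, 97 on none and 43 on 1 to 3. Background was set on each array at the 95th percentile of its negative controls. It was 6.91 and 7.39 on the siOCT1 arrays (DHT and vehicle) and 6.99 and 6.62 on the siControl arrays. Bacterial spike-in probe sets, which carry no cell RNA, were higher on the siOCT1 arrays by a median of 1.29 in DHT and 1.12 in vehicle, and their part in the siRNA differences was not tested. Of 8 luminal prostate markers 6 lay above background on every array, against 0 of 11 basal, stromal, endothelial and immune markers. A culture average cannot tell fewer cells of a kind from less RNA per cell.

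The array of siControl cells in vehicle stood lowest for most of the measured members. It was the lowest of the 4 for 96 of 165 members (58.2%), against 24.3% of all 8843 measured genes, and the highest for 9. Among measured ZNF genes of other chromosomes it was the lowest for 43.9%, and among other measured genes of chromosome 19 for 12.8%. The median signal of members was 8.01 with siOCT1 and DHT, 7.93 with siOCT1 and vehicle, 7.77 with siControl and DHT, and 7.46 with siControl and vehicle. The siRNA difference in vehicle and the DHT difference in siControl cells both use that last array, so they are not separate measurements. The siRNA difference in DHT and the DHT difference in siOCT1 cells do not use it.

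The 5 brightest members all lie in one run of neighbouring genes that also holds ZNF91. ZNF254 had a signal of 14.50 with siOCT1 and DHT, 14.43 with siOCT1 and vehicle, 14.09 with siControl and DHT, and 12.64 with siControl and vehicle. Only the array of siControl cells in vehicle stands apart. ZNF208 had 12.58 and 12.69 in siOCT1 cells (DHT and vehicle), against 13.08 and 11.63 in siControl cells. ZNF43, first described in lymphoid cells, had 12.58 and 12.12 in siOCT1 cells, against 13.27 and 11.80 in siControl cells. ZNF675, whose protein binds the signalling adaptor TRAF6, had 12.53 and 12.58 in siOCT1 cells, against 12.60 and 11.25 in siControl cells. ZNF253 had 12.69 and 12.76 in siOCT1 cells, against 12.22 and 11.28 in siControl cells. In siOCT1 cells DHT and vehicle gave nearly the same signal for each of the 5 except ZNF43, while in siControl cells DHT exceeded vehicle by 0.94 (ZNF253) to 1.46 (ZNF43).

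Members were ordered along the chromosome by RefSeq and split into blocks wherever neighbouring members lay over 500 kb apart. This gave 20 blocks, and the 10 with 5 or more members held 223 of the 237. The block from ZNF101 to ZNF254 holds 33 members, 29 of them measured, and was set apart after its values had been seen, so what follows is a description with no test. In siOCT1 cells the median DHT difference over its 29 measured members was 0.07, with 1 member higher and 3 lower by 1.5-fold or more. In siControl cells the median was 1.27, all 29 values were above 0, and 27 reached 1.5-fold. Among all measured genes 13.5% were higher and 11.3% lower by that size in siOCT1 cells, and 15.3% were higher and 12.2% lower in siControl cells. Of the 20 largest DHT responses of members in siControl cells, 14 lay in the block.

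**Figure D1:**
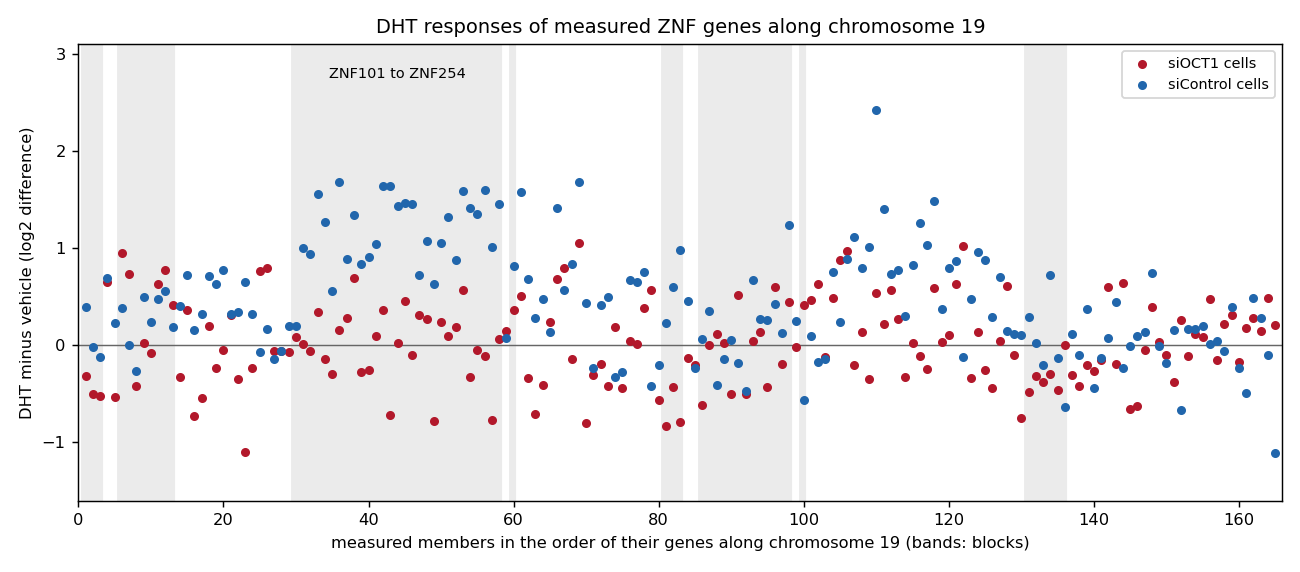
DHT minus vehicle (log2 difference) for the 165 measured members in chromosomal order, in siOCT1 cells (red) and siControl cells (blue), with 1 pair of arrays behind each colour and alternate shading for blocks of neighbours. The blue points of the ZNF101 to ZNF254 block lie between 0.20 and 1.68 while the red points of the same genes lie between -0.78 and 0.69.

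ZNF91, whose protein represses SVA and LINE-1 retrotransposons, had a signal of 9.66 with siOCT1 and DHT, 9.99 with siOCT1 and vehicle, 9.59 with siControl and DHT, and 8.18 with siControl and vehicle. Again the array of siControl cells in vehicle is the one set apart, below the other 3. ZNF93, another repressor of LINE-1 elements, had 8.43 and 8.08 in siOCT1 cells (DHT and vehicle), against 9.31 and 7.76 in siControl cells. ZNF85 had 10.35 and 9.66 in siOCT1 cells, against 11.28 and 9.94 in siControl cells. Its DHT response of 0.69 in siOCT1 cells, against 1.34 in siControl cells, was the only one of the block to reach 1.5-fold with both siRNAs. ZNF681 had 9.13 and 9.24 in siOCT1 cells, against 10.64 and 9.04 in siControl cells, and ZNF730 had 10.39 and 9.82, against 11.98 and 10.39. For both genes the array of siControl cells in DHT is the one that stands apart.

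Within the block the members differed in which array departed from the rest. The array of siControl cells in DHT was the highest for 21 of the 29, and the array of siControl cells in vehicle was the lowest for 20. The siRNA difference had a median of -0.68 in DHT, with 15 members lower and 2 higher by 1.5-fold or more, and a median of 0.33 in vehicle, with 1 lower and 13 higher. Over all measured genes 25.1% were lower and 18.4% higher by that size in DHT, and 27.9% were lower and 22.2% higher in vehicle. ZNF101, at the edge of the block, had the smallest DHT difference in siControl cells, 0.20. The 23 members above background on all 4 arrays had a median DHT difference of 0.10 in siOCT1 cells and 1.34 in siControl cells, where all 23 reached 1.5-fold. The 4 members that were not measured, ZNF14, ZNF486, ZNF493 and ZNF99, lay below background on every array. So did LINC00663, the only other named gene between members of the block.

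**Figure D2:**
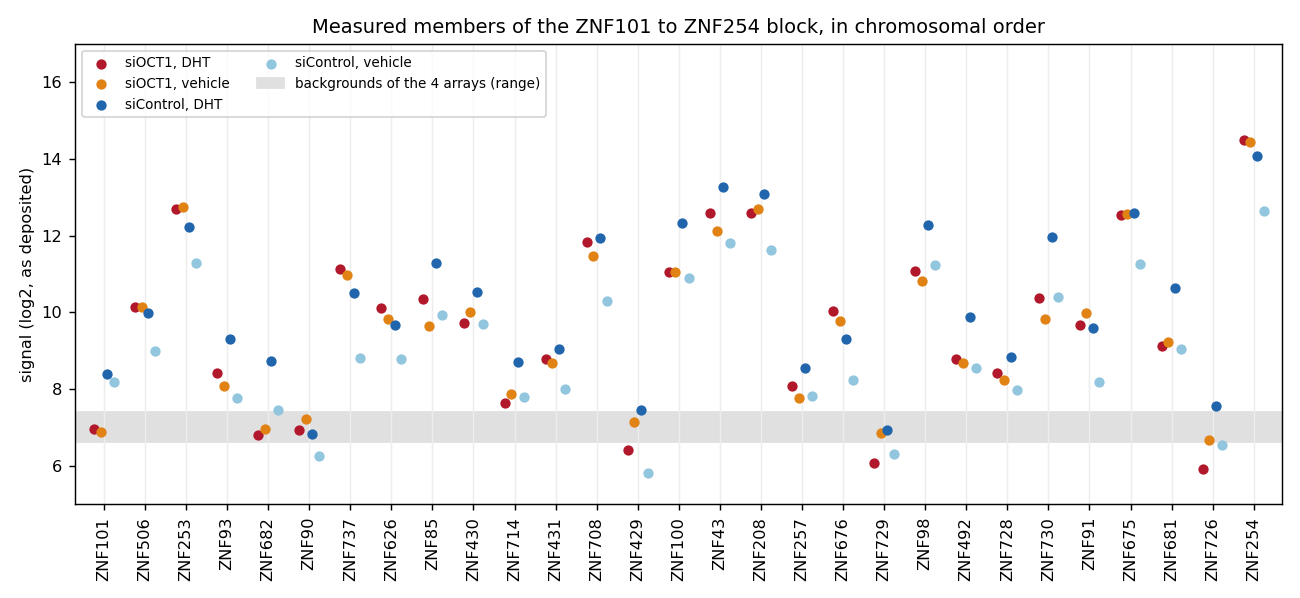
Signal (log2, as deposited) of the 29 measured members of the ZNF101 to ZNF254 block in chromosomal order, 1 point per array, with the grey band spanning the backgrounds of the 4 arrays (6.62 to 7.39). For ZNF254, ZNF675 and ZNF91 the light blue point (siControl, vehicle) lies alone below the other 3, while for ZNF681 and ZNF730 the dark blue point (siControl, DHT) lies alone above them.

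The promoters of the block were compared because its members moved together. RefSeq sequences (GRCh38.p14) reaching from 250 bases before to 50 after the start were found for 207 members, 26 of them in the block. The last 130 upstream bases are shown for 6 bright or strongly differing members of the block, for ZNF101, its member with the smallest DHT response in siControl cells, and for ZNF490, a member of another block whose 4 signals were 9.34 and 9.40 in siOCT1 cells and 9.30 and 9.36 in siControl cells. Capitals mark the letters CCAATCAG, a CCAAT box core, on either strand.
ZNF91, chr19:23395472-23395601, minus strand: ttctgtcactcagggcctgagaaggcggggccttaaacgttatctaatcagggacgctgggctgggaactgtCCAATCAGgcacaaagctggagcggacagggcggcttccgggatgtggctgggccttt
ZNF208, chr19:22010944-22011073, minus strand: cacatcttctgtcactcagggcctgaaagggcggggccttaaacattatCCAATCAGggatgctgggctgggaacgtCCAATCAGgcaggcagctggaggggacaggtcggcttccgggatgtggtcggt
ZNF43, chr19:21836183-21836312, minus strand: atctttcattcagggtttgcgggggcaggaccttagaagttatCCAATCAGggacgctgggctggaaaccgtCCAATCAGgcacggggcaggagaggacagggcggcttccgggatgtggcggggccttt
ZNF254, chr19:24087057-24087186, plus strand: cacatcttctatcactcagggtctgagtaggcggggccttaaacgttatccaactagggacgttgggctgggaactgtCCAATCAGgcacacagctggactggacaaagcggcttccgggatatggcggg
ZNF675, chr19:23687213-23687342, minus strand: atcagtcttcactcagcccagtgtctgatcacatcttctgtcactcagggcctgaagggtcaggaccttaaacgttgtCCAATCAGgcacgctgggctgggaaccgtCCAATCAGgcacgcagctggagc
ZNF681, chr19:23758892-23759021, minus strand: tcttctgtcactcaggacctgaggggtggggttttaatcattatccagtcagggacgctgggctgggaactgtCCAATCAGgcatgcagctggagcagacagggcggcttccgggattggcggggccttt
ZNF101, chr19:19668709-19668838, plus strand: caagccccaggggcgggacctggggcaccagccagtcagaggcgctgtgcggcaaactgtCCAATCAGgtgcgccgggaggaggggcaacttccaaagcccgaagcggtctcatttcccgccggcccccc
ZNF490, chr19:12610814-12610943, minus strand: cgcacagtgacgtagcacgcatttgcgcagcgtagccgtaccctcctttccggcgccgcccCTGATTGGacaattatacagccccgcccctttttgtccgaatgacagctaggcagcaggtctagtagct

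Pairs of block promoters were on the whole more alike than pairs drawn across all other blocks, with overlapping ranges. Pairs within each other block were not compared, so these values cannot tell whether this block's promoters are more alike than those of other runs of neighbours. Over the 250 upstream bases the median identity was 76.0% across the 325 pairs of block genes (47.6 to 92%). It was 50.2% across the 1035 pairs of 46 members outside it, taken at even steps along the list in order of symbol (40.8 to 78.2%). With ZNF91 the identity was 86.4% for ZNF208, 82.7% for ZNF254, 80.6% for ZNF43, 80.4% for ZNF681 and 62.8% for ZNF675, and it was 54.8% for ZNF101 and 48.6% for ZNF490. A pair of stretches of the ZNF91 promoter was picked after the sequences had been read and then searched on both strands of all 300-base windows. TCCAATCAGG stood in 24 of the 26 block windows (92.3%), in 18 of 181 windows of other members (9.94%) and in 117 of 27305 windows of all genes (0.428%). CTGTCACTCAGG, in lower case near the start of the ZNF91 line, stood in 18 block windows (69.2%), in 6 of other members (3.31%) and in 38 of all genes (0.139%). For both stretches the other members include ZNF625 and the read-through symbol ZNF625-ZNF20, whose windows overlap.

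Outside the block, windows with these letters went with DHT differences of either sign. The 11 measured members outside it with TCCAATCAGG had a median DHT difference of -0.32 in siOCT1 cells and 0.17 in siControl cells, against -0.02 and 0.28 for the 110 without it. The 22 block members with it had 0.04 and 1.38. ZNF101 holds the stretch and had 0.20 in siControl cells. Of the 6 measured genes that are not members and hold CTGTCACTCAGG, ZNF138, ZNF195 and ZNF680 had DHT differences of 0.29, 0.40 and 0.02 in siOCT1 cells, against 1.29, 1.33 and 1.43 in siControl cells. The other 3, EIF2AK3, ATP6V0E2 and ZNF669, had -0.70, 0.06 and -0.29 in siOCT1 cells, against 1.18, -0.44 and -0.33 in siControl cells. They passed background on 1, 2 and 2 arrays.

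OCT1 binds the octamer ATGCAAAT, so the same windows were searched for it on both strands. It stood in 11 of the 207 member windows (5.31%), 3 of the 26 of the block (11.5%) and 598 of the 27305 of all genes (2.19%). ZNF625 and the read-through symbol ZNF625-ZNF20 hold the same site and were counted as separate members. Stretches of 30 bases around it, read from the GRCh38.p14 windows with the octamer in capitals, are shown for the 3 block genes and for 2 members elsewhere.
ZNF682, chr19:20039726-20039755, minus strand: tacaaagttaaATGCAAATgttccccagga
ZNF430, chr19:21020407-21020436, plus strand: cacaaggttaaATGCAAATaacctctgggg
ZNF257, chr19:22052236-22052265, plus strand: cacaaggttaaATGCAAATacctttgggtt
ZNF69, chr19:11887594-11887623, plus strand: gtttggctgaaATGCAAATatccaataacc
ZNF625, chr19:12156925-12156954, minus strand: atttggctgaaATGCAAATacccaaagagc
The 3 block genes with the octamer had a median siRNA difference of -0.81 in DHT and -0.05 in vehicle, against -0.78 and 0.51 for the 20 block genes without it. ZNF682 had a signal of 6.81 and 6.95 in siOCT1 cells (DHT and vehicle), against 8.73 and 7.45 in siControl cells, and both siOCT1 values lay below background. The 6 measured members outside the block with the octamer, ZNF625 and ZNF625-ZNF20 among them, had -0.31 in DHT and 0.35 in vehicle. The 115 without it had 0.19 and 0.49. A match of these letters is no evidence of binding.

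Over all 165 measured members the siRNA difference had a median of 0.11 in DHT and 0.49 in vehicle, against -0.06 and -0.06 over all measured genes. In vehicle 73 members were higher (44.2%) and 12 lower (7.27%) by 1.5-fold or more, beside 22.2% and 27.9% of all measured genes. ZNF genes of other chromosomes gave 31.8% and 11.5% in vehicle. In DHT 34 members were higher (20.6%) and 27 lower (16.4%), beside 18.4% and 25.1% of all measured genes, so the higher share there was near that of all genes. Both ligand states passed that size together for 27 members on the higher side and 6 on the lower side, beside 11.7% higher and 17.9% lower among all measured genes. The share of members on the higher side (16.4%) was above the share of all genes and the share on the lower side (3.64%) below it. Of the 46 negative control probe sets as bright as measured genes, 26.1% were higher by this size in both ligand states. That share exceeds the member share, and the part of such control signals in the member count was not tested. ZNF genes of other chromosomes, 148 of them measured, gave 8.78% higher and 6.76% lower, and the 430 other measured genes of chromosome 19 gave 8.84% and 15.8%.

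An additive limma fit of siRNA and ligand over the 4 arrays, the only test that leaves a residual, called 14 members higher and 2 lower with siOCT1 (adjusted p under a threshold of 0.05), beside 8.35% higher and 14.4% lower among all genes. Of the 165, 45 (27.3%) had an unadjusted p below that threshold, beside 38.2% of all genes. The member share on the higher side (8.48%) was at the background. With the arrays centred on the positive controls it called 29 members higher and 4 lower, and 1208 of all genes higher and 1312 lower, against 738 and 1271 as deposited. The only residual of a gene in the fit is the difference between the ligand states, with 1 degree of freedom. Its error is drawn toward a trend over all genes, which weighs more (prior 5.47 degrees of freedom). A gene whose siRNA difference depends on ligand, as in the ZNF101 to ZNF254 block, has a larger error for that reason, though a moderated one.

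The members that rose with siOCT1 spanned signals from near background to bright. ZNF528 had a signal of 8.66 and 8.39 in siOCT1 cells (DHT and vehicle), against 7.24 and 6.46 in siControl cells, and rose by 1.42 in DHT and at least 3.40-fold in vehicle (limma adjusted p = 0.014). ZNF880, bright and next to it on the chromosome, had 12.04 and 11.46 in siOCT1 cells, against 10.78 and 10.05 in siControl cells, and rose by 1.25 and 1.41 (limma adjusted p = 0.013). For both genes the siOCT1 arrays stand above both siControl arrays. ZNF610, from the same neighbourhood, had 7.79 and 7.57 in siOCT1 cells, against 6.79 and 5.38 in siControl cells, at least 1.74-fold and 1.93-fold higher (limma adjusted p = 0.030). ZNF28 had 9.73 and 9.14 in siOCT1 cells, against 8.83 and 7.34 in siControl cells.

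ZNF350, known as ZBRK1, encodes a repressor that works with BRCA1 at DNA damage response genes. It had 9.47 and 8.59 in siOCT1 cells (DHT and vehicle), against 8.04 and 7.80 in siControl cells, and rose by 1.43 and 0.80 (limma adjusted p = 0.042). ZNF358, in another block, had 8.01 and 8.55 in siOCT1 cells, against 6.98 and 6.75 in siControl cells, where the DHT array lay below background. The groups do not overlap in either gene. ZNF17 had 8.87 and 9.06, against 7.84 and 7.39 in siControl cells. ZNF426 had 7.67 and 7.75, against 6.48 and 6.24 in siControl cells, both below background, so that it was at least 1.605-fold and 2.18-fold higher. ZNF737 and ZNF676 were the 2 members of the ZNF101 to ZNF254 block that rose. ZNF737 had 11.13 and 10.97 in siOCT1 cells, against 10.50 and 8.82 in siControl cells, and ZNF676 had 10.05 and 9.78, against 9.30 and 8.22. The remaining 4 of the 14 were ZNF613, ZNF526, ZNF534 and ZNF561, named after their values were seen.

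The 2 members that fell were ZNF584 and ZNF101. ZNF584 had 8.48 and 7.99 in siOCT1 cells (DHT and vehicle), against 9.41 and 9.51 in siControl cells, and fell by 0.93 and 1.52 (limma adjusted p = 0.029). ZNF101 had 6.97 and 6.89 in siOCT1 cells, against 8.39 and 8.19 in siControl cells, and was lower by 1.42 in DHT and at least 1.74-fold lower in vehicle (limma adjusted p = 0.021). In both genes each siOCT1 array lies below each siControl array. The other 4 past the size in both ligand states, ZNF829, ZNF574, ZNF77 and ZNF844, were not called. ZNF829 had 6.06 and 5.003 in siOCT1 cells, both below background, against 7.39 and 5.71 in siControl cells, where the vehicle signal was also below background. ZNF574 lay below background on every array and ZNF77 on both siOCT1 arrays. ZNF844 differed by -0.63 and -0.61 at signals of 7.53 to 8.46.

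**Figure D3:**
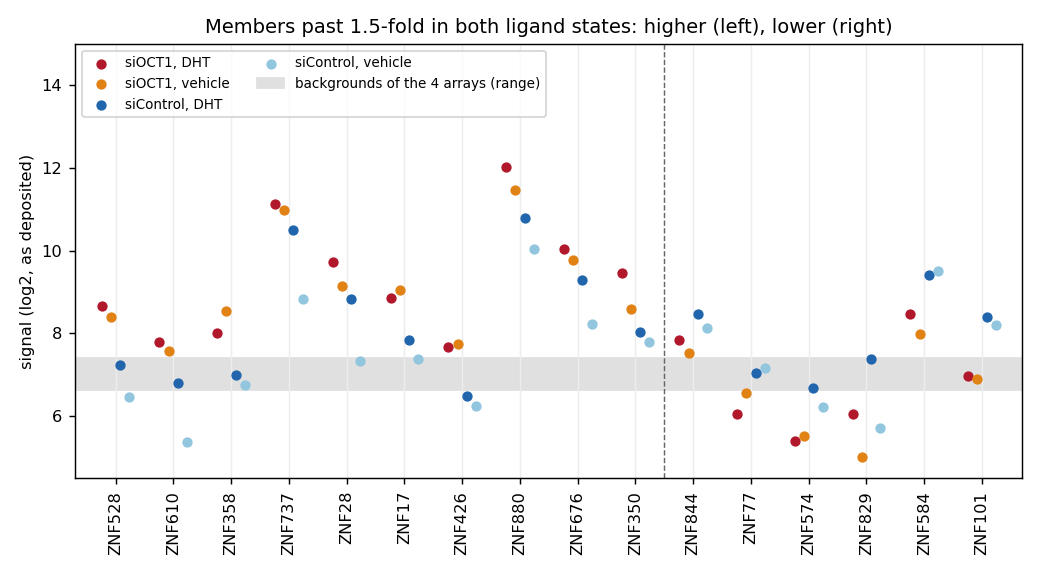
Signal (log2, as deposited) of the 10 members with the highest (left) and the 6 with the lowest (right) mean siRNA difference among those past 1.5-fold in both ligand states, 1 point per array, with the range of the 4 backgrounds (6.62 to 7.39) in grey. In ZNF880 both siOCT1 points (11.46 and 12.04) lie above both siControl points, in ZNF584 both (7.99 and 8.48) lie below them.

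**Figure D4:**
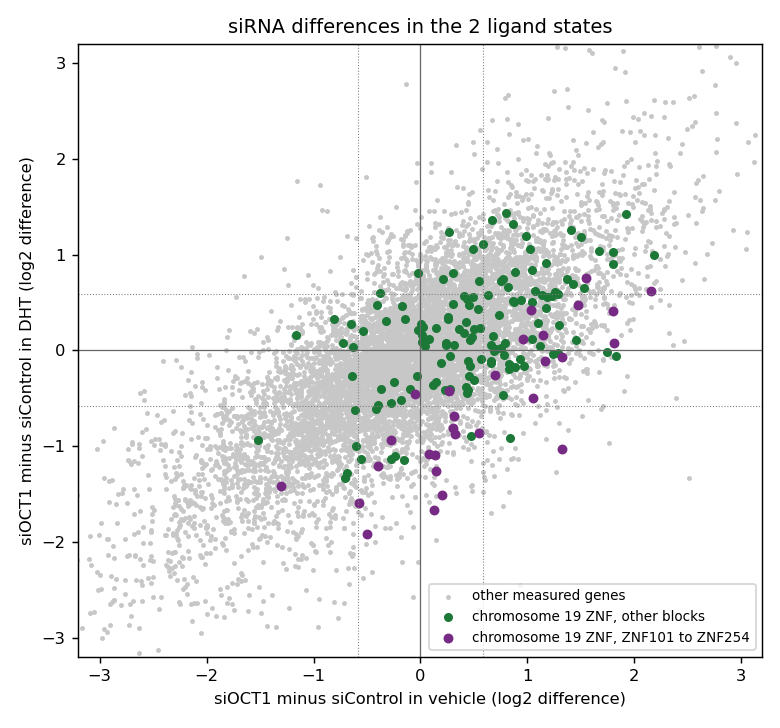
siOCT1 minus siControl (log2 difference) in vehicle (horizontal) against DHT (vertical) for the 29 measured members of the ZNF101 to ZNF254 block (purple), the 136 other measured members (green) and the other measured genes (grey), each axis from 1 pair of arrays, with dotted lines at 1.5-fold. Points outside 3.2 on either axis are not drawn. The purple points lie low on the vertical axis, with a median of -0.68 in DHT and 0.33 in vehicle.

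In the DHT comparison the members had a median difference of 0.01 in siOCT1 cells and 0.40 in siControl cells, against 0.02 and -0.03 over all measured genes. In siOCT1 cells 21 members were higher (12.7%) and 13 lower (7.88%) by 1.5-fold or more, near the 13.5% and 11.3% of all genes. In siControl cells 66 were higher (40.0%) and 3 lower (1.82%), beside 15.3% and 12.2%. Outside the ZNF101 to ZNF254 block 39 of the 136 measured members (28.7%) were higher in siControl cells, with a median of 0.27. ZNF genes of other chromosomes gave 30.4% higher with a median of 0.27, and other genes of chromosome 19 gave 2.79% with a median of -0.22. Past the size with both siRNAs were 7 members on the higher side (4.24%) and 0 on the lower, beside 4.53% and 3.99% of all measured genes. The limma fit called 0 members for DHT in either direction, beside 0.577% higher and 0.249% lower among all genes, and 17 members (10.3%) had an unadjusted p below 0.05, beside 13.1% of all genes.

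The largest mean DHT differences among the 7 were those of ZNF829, ZNF567, ZNF28, ZNF85 and ZNF432. ZNF567 had a signal of 9.24 with DHT and 8.56 with vehicle in siOCT1 cells, and 8.54 with DHT and 7.13 with vehicle in siControl cells. ZNF28 had DHT differences of 0.59 in siOCT1 cells and 1.49 in siControl cells. ZNF829 lay below background on both siOCT1 arrays and in siControl cells exceeded vehicle at least 1.70-fold with DHT, so its place among the 5 rests partly on signals below background. ZNF432, a KRAB protein linked to DNA repair, exceeded vehicle at least 1.17-fold with DHT in siOCT1 cells and at least 1.57-fold in siControl cells, with both vehicle arrays below background.

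The change of the DHT response is the DHT difference in siOCT1 cells minus that in siControl cells. Its median was -0.52 over the 165 measured members and 0.03 over all measured genes. By 1.5-fold or more, 78 members (47.3%) were lower and 15 (9.09%) higher, beside 17.6% lower and 17.2% higher among all measured genes. In the ZNF101 to ZNF254 block the median was -1.16, with all 29 values below 0 and 27 past the size. In the other 136 measured members it was -0.34, with 51 lower and 15 higher. The block was set apart after its values had been seen, and the change subtracts its DHT responses in siControl cells. Its contrast with the other classes is therefore no separate result. ZNF genes of other chromosomes had a median of -0.24 (31.8% lower), and other genes of chromosome 19 had 0.13 (12.1% lower). With the arrays centred on the positive controls, 90 members were lower and 8 higher, and 2291 of all genes were lower and 899 higher, against 1558 and 1525 as deposited. No residual is left to test this quantity. Among the 46 negative control probe sets as bright as measured genes, 22 (47.8%) were lower by this size and 17 were higher, with changes from -18.42 to 9.97. With DHT in siControl cells 21 of these 46 (45.7%) were higher and 15 lower. The 23 antigenomic control probe sets, taken at any brightness, had a median change of 0.004, from -0.24 to 0.88. The part of such control signals in the member counts was not tested.

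**Figure D5:**
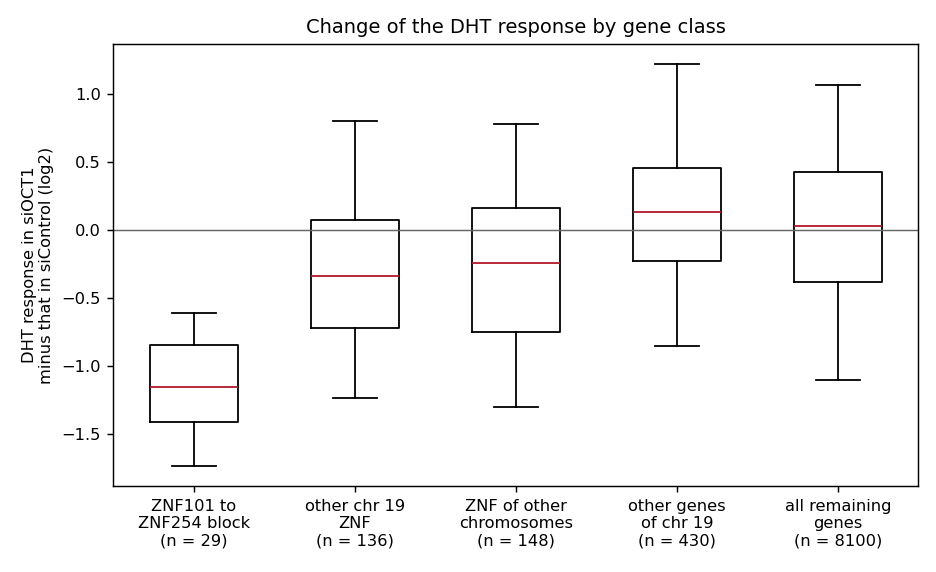
DHT response in siOCT1 minus that in siControl (log2) for 5 classes of measured genes, with the median (red line), the 25th to 75th percentiles (box) and the 5th to 95th percentiles (whiskers). The ZNF101 to ZNF254 block, set apart after its values had been seen, lies wholly below 0 with a median of -1.16. Other ZNF genes of chromosome 19 have -0.34, and other genes of that chromosome have 0.13.

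The 5 lowest changes belonged to ZNF429, ZNF480, ZNF726, ZNF780A and ZNF625. ZNF480 had a signal of 9.88 with DHT and 9.34 with vehicle in siOCT1 cells, against 9.94 and 7.52 in siControl cells. Its DHT difference was 0.54 in siOCT1 cells and 2.42 in siControl cells, the largest of any measured member, and only the array of siControl cells in vehicle stands apart. ZNF625 had 6.69 and 7.79 in siOCT1 cells, against 7.61 and 6.96 in siControl cells, so that its order with ligand was turned round. ZNF429, ZNF726 and ZNF780A were each above background on 1 array, with changes of -2.35, -1.79 and -1.77 that rest mostly on signals below it.

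The 5 highest changes were smaller, from 0.93 to 1.32, and belonged to ZNF324B, ZNF321P, ZNF607, ZNF473 and ZNF551. ZNF473, a component of the U7 particle that processes histone messages, had 10.38 with DHT and 9.96 with vehicle in siOCT1 cells, against 9.14 and 9.70 in siControl cells. Its array of siControl cells in DHT is the lowest of the 4. ZNF607 had 8.30 and 7.74 in siOCT1 cells, against 7.70 and 8.12 in siControl cells. ZNF324B passed background on 1 array, ZNF551 on 2, and the pseudogene ZNF321P, which shares sequence with ZNF816, on 3.

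The other blocks differed in the size of the change of the DHT response. In the block from ZNF175 to ZNF331, with 30 measured members of 37, the median DHT difference was 0.12 in siOCT1 cells and 0.76 in siControl cells, and the median change was -0.66 with 17 lower. It also held 7 of the 14 members that rose with siOCT1. In the block from ZNF565 to ZNF573, with 20 of 25 measured, the DHT medians were -0.06 and 0.49, and the change had a median of -0.63 with 12 lower. In the block from ZNF653 to ZNF791, with 16 of 27 measured, they were -0.06 and 0.32, and the change was -0.54 with 7 lower.

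Changes were smaller in the remaining blocks with at least 8 measured members. In the block from ZNF264 to ZNF446, with 29 of 42 members measured, the DHT medians were 0.03 in siOCT1 cells and 0.04 in siControl cells, and the change had a median of -0.09 with 3 lower and 5 higher. In the block from ZNF414 to ZNF846, with 8 of 11 measured, the DHT medians were 0.52 and 0.31 and the change was 0.18 with 0 lower. In the block from ZNF575 to ZNF180, with 13 of 23 measured, the siRNA medians were 0.56 in DHT and 0.56 in vehicle, and the change was -0.33 with 4 lower. The array of siControl cells in vehicle was nevertheless the lowest for 75.0% of the measured members from ZNF414 to ZNF846 and for 61.5% of those from ZNF575 to ZNF180. The blocks from ZNF628 to ZNF835, ZNF554 to ZNF77 and ZNF302 to ZNF792 held 6, 3 and 1 measured members.

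Members with a described role were spread over these patterns. ZNF146, made of zinc fingers alone and without KRAB, had a signal of 12.71 and 12.21 in siOCT1 cells (DHT and vehicle), against 12.66 and 11.09 in siControl cells. It too was lowest on the array of siControl cells in vehicle. ZNF224, a repressor of aldolase A, had 9.61 and 9.57 in siOCT1 cells, against 9.05 and 8.39 in siControl cells. ZNF382, a KRAB gene silenced by promoter methylation in several carcinomas, had 8.59 and 8.998, against 7.94 and 7.47 in siControl cells, and ZNF420, known as APAK and a negative regulator of p53, had 7.83 and 8.14, against 7.01 and 7.25. In these last 3 both siOCT1 arrays lie above both siControl arrays, and none was called (limma adjusted p = 0.056 to 0.076).

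ZNF568, whose mouse counterpart represses a placental Igf2 promoter, had 8.38 and 9.18 in siOCT1 cells, against 8.85 and 8.41 in siControl cells, and the groups overlap. ZNF649, a repressor of serum response reporter activity, had 7.55 and 7.67 in siOCT1 cells, against 7.08 and 7.22 in siControl cells. ZNF331, an imprinted gene rearranged in thyroid adenomas, had 6.03 and 6.78, both below background, against 7.13 and 7.02 in siControl cells. ZNF558 and ZNF577 passed background on 1 array each and ZNF667 on none. ZNF274, which brings SETDB1 to the ends of other ZNF genes, ZNF653, ZNF582, ZNF154, ZNF671, ZNF132 and the neuronal ZNF536 were not measured and lay below background on every array. Methylation of ZNF132, ZNF154, ZNF582 and ZNF671 promoters is known from carcinomas.

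A list of genes for the proteins through which KRAB zinc fingers act was set beside the members. Of 36 corepressor and heterochromatin genes listed, 33 were named on the arrays and all 33 were measured. With siOCT1 0 of the 33 were higher and 10 lower by 1.5-fold in both ligand states, beside 11.7% and 17.9% of all genes. By this size rule the lower share was above that of all genes and the higher share below it. Limma called 0 higher and 6 lower, beside 8.35% and 14.4% of all genes, so the lower count was near background. TRIM28 had a signal of 11.17 and 11.85 in siOCT1 cells (DHT and vehicle), against 11.63 and 12.14 in siControl cells, and SETDB1, the H3 lysine 9 methyltransferase of the complex, had 10.93 and 11.22, against 10.94 and 11.03. Neither was called. The largest fall was in RBBP4, a histone chaperone of the NuRD complex, with 10.88 and 10.47 in siOCT1 cells, against 12.86 and 12.74 in siControl cells (limma adjusted p = 0.004). The maintenance methyltransferase DNMT1 had 6.73 and 6.70, both below background, against 8.13 and 8.68 in siControl cells, at least 2.34-fold and 2.44-fold lower (limma adjusted p = 0.014), and H3-3B, a gene for histone H3.3, fell by 1.41 and 1.25 (limma adjusted p = 0.007). At the other end, PIAS1 and ATF7IP had siRNA differences of 0.33 and 0.26 in DHT and 1.41 and 1.17 in vehicle, and MPHOSPH8 lay below background on every array. None of the 3 was called.

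Of 14 zinc finger genes of chromosome 19 with other symbols (ZFP, ZSCAN, ZIM and ZBTB), 5 were measured. ZBTB45 was called higher, with 7.23 and 7.27 in siOCT1 cells, against 6.19 and 6.13 in siControl cells (limma adjusted p = 0.045), above background on the DHT array of siOCT1 cells only. ZFP36, which encodes a binder of AU-rich messages rather than a DNA-reading protein, had 8.50 and 8.89 in siOCT1 cells, against 7.92 and 6.92 in siControl cells, and was not called.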

How the data were processed

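RNA of 4 cultures of 22Rv1 cells was measured on 1 whole-transcript array per group, with groups taken from the labels. The submitters' processing notes name RMA and Affymetrix Expression Console as the tools behind the deposited log2 signals. Software versions, the annotation and the genome build are not given in the sources used here. Such processing forces arrays to a common distribution, so a global shift is not visible. The log base was inferred from the range of the signals. Each array had 327 to 379 signals over 16, which a 16-bit scanner could not give, so folds hold on the deposited scale only.

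Of 24351 probe sets, 17687 genes had 1 symbol, with the brightest probe set used for each. Members and lists were chosen with earlier results of these data known. Genes with a mean above the median of all means were measured. Differences were counted at 1.5-fold. An additive model was fitted with limma 3.58.1 in R 4.3.3 (eBayes with trend, Benjamini-Hochberg over 8843 genes, threshold 0.05, residual degrees of freedom 1, prior 5.47). The fit was tried on simulated arrays with additive siRNA changes and independent noise. Such arrays cannot show how it behaves where the siRNA difference depends on ligand. The residual of the fit to the real arrays measures the difference between ligand states, not between cultures. If the lower signal of a pair was under the background of its array, a fold printed as "at least" was taken against that background. Counts, medians, limma and the change of the DHT response use the deposited signals, also those below background. Named members were the 10 highest and 10 lowest by mean siRNA difference and the 5 highest and 5 lowest by mean DHT difference among those past the size in both pairs, the 5 at either end of the change, the 5 brightest, and members with a described role. Protein sequences and KRAB domains were not analysed. Promoters came from RefSeq. Other filters, scalings, fold sizes and limma options were tried.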

Additional observations from a re-analysis of the deposited data

Results flagged for a closer look

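For 5 measured members (3.03%) DHT minus vehicle reached 1.5-fold lower in siOCT1 cells and 1.5-fold higher in siControl cells on the deposited signals. Among all measured genes 1.29% passed that size in opposite directions, but that share counts either order, so it is not the share for this order alone. Each sign rests on 1 pair of arrays, and the difference between them was not tested. ZNF625, above background on 3 arrays, was at least 1.84-fold lower with DHT in siOCT1 cells and higher by 0.65 in siControl cells, a change of -1.75. ZNF780A was at least 1.69-fold lower in siOCT1 cells, and both of its siControl signals were under background (change -1.77). ZNF429 and ZNF726 lay below background on both siOCT1 arrays and were at least 1.78-fold and 1.92-fold higher with DHT in siControl cells (changes -2.35 and -1.79). ZNF729 lay below background on all 4 arrays (change -1.41). The siRNA difference also had opposite signs in the ligand states in all 5. Only in ZNF429 and ZNF625 did it reach 1.5-fold in both states. For these genes that is the same change of -2.35 and -1.75 read the other way. ZNF429, ZNF726 and ZNF729 lie in the ZNF101 to ZNF254 block.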

How the results depend on the processing

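The median DHT difference of members in siOCT1 cells, 0.01 as reported, turned to -0.06 without a filter and -0.05 when centred on positive controls. No other median of the members or of the block changed sign under the alternatives tried, and 135 values of counts and medians stayed near the reported one. The following 34 moved, in each case with the cause not tested beyond the genes an alternative adds or removes. Without a filter on signal (237 members), limma called 8 higher with siOCT1, 29 members had a higher change, 1 was lower with DHT under both siRNAs, and the median DHT difference in siControl cells was 0.28, or 1.07 in the ZNF101 to ZNF254 block. With a stricter filter (99 members), 3 were higher with DHT under both siRNAs, 9 had a higher change and 3 were lower with siOCT1. Among the 6924 genes that passed it, 1126 had a higher change and 1278 were lower with siOCT1. Centring on positive controls moved the medians of all measured genes to 0.16 for the siRNA in vehicle, 0.12 for DHT in siControl cells and -0.19 for the change, and made 25.9% of all genes lower in change. Limma then called 29 members higher and 4 lower with siOCT1 and 1 higher with DHT, 2 were lower by size with siOCT1, 8 had a higher change, and the member medians were 0.70 for the siRNA in vehicle and 0.54 for DHT in siControl cells. The block had 1.42 for DHT in siControl cells and -1.37 for the change, above and below those shifted medians. With 32 added before the logarithm, 4 members were higher with DHT under both siRNAs, 2 were lower with siOCT1, and the block had 1.14 and -1.05. Among all 8843 measured genes 1437 were then lower with siOCT1. With all signals under the highest background lifted to it (121 members), 15 were higher and 3 lower by size with siOCT1, limma called 9 higher, 3 were higher with DHT under both siRNAs, 9 had a higher and 48 a lower change, the siRNA median in vehicle was 0.33 and the block's change -1.02. At 2-fold, 6 were higher and 1 lower with siOCT1, 1 was higher with DHT under both siRNAs, and 2 had a higher and 34 a lower change. All genes were not counted at 2-fold, nor for DHT under both siRNAs at any alternative. Without a filter 2935 of 17687 genes had a higher change. Centred on positive controls, 1354 of 8843 genes were lower by size with siOCT1 and 899 had a higher change. With signals lifted, 800 of 7706 genes were higher and 1244 lower by size with siOCT1, and 1089 had a higher and 1195 a lower change.

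For the 12 named members called by limma, 110 of 118 values under alternatives kept the call and 8 lost it, in ZNF737 (3), ZNF676 (2), ZNF610, ZNF426 and ZNF350 (1 each), and 0 reversed. No paired analysis was possible because the labels give no replicate numbers and each group holds 1 array, although the limma fit does compare the siRNAs within each ligand state. For the same reason no array could be left out of a group. Signal over background limits the 97 members that lay below it on every array.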
